A study of Mus musculus with 10 samples.

Results

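The genes described here encode 7 cyclic nucleotide phosphodiesterases and 2 proteins that carry the cGMP signal onward. They are Prkg1 and Vasp on the effector side, and Pde1a, Pde1c, Pde2a, Pde3a, Pde4b, Pde4d and Pde8a on the side of cyclic nucleotide breakdown. They were chosen by name, with earlier results of these data known. All 9 are among the 11777 genes of the expression table, with 16 of its 22157 transcripts. Prkg1, Pde1a, Pde3a, Pde8a and Vasp have 1 listed transcript each. Pde1c has 4, Pde4b has 3, and Pde2a and Pde4d have 2 each.

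Natriuretic peptides and nitric oxide raise cGMP in heart cells through guanylyl cyclases, and cGMP then acts on cGMP-dependent protein kinase and on phosphodiesterases that it stimulates or inhibits. Phosphodiesterases hydrolyse cGMP, cAMP or both, and so set how far and how long each signal reaches. In heart muscle several families work side by side, with the PDE4 and PDE8 families specific for cAMP and the PDE1, PDE2 and PDE3 families acting on both nucleotides.

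Polyadenylated RNA of mouse myocardium was sequenced to compare animals lacking natriuretic peptide receptor A (NPRA, the guanylyl cyclase encoded by Npr1) in the myocardium with littermates that kept it. All mice were C57BL/6. The libraries labelled NPRA-/- carry the mouse numbers 217, 227, 231, 240 and 241, and the libraries labelled NPRA+/+ carry 228, 230, 242, 243 and 255, which makes n = 5 in each group. The labels name neither the promoter that drove the deletion nor the age of the mice, and no other treatment. Levels are FPKM, the fragments of a transcript scaled to its length and to the size of the library, summed over the listed transcripts of a gene. The summed FPKM of a library ran from 430059 to 453122, and the number of reads behind it is unknown.

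Npr1 itself did not separate the groups. It averaged 4.64 ± 0.492 FPKM in the NPRA-/- group and 4.68 ± 0.301 FPKM in the NPRA+/+ group (n = 5 each, SD; p = 0.857 in an exact permutation test, two-sided). It therefore did not check the labels, and every direction below is that of the labels. The ligand genes Nppa and Nppb averaged 381 ± 54.9 and 168 ± 17.8 FPKM in NPRA-/- libraries, against 433 ± 221 and 156 ± 77.8 FPKM in NPRA+/+ libraries, and did not pass the limma test either. Of the cell type markers, Myl2, the ventricular myosin light chain, was at 2252 to 2523 FPKM in NPRA-/- libraries and at 2130 to 2596 FPKM in NPRA+/+ libraries. Myl7, the atrial light chain, was at 12.7 to 140 FPKM in replicates 217, 227 and 231 of the NPRA-/- group and at 26.9 to 75.4 FPKM in replicates 230, 242 and 243 of the NPRA+/+ group. It was under 1 FPKM in NPRA-/- replicates 240 and 241 and in NPRA+/+ replicates 228 and 255. Summed endothelial markers (10 of 10 listed) were at 292 to 366 FPKM in NPRA-/- libraries and at 351 to 382 FPKM in NPRA+/+ libraries. Summed macrophage markers (8 of 8 listed) were at 220 to 240 FPKM in NPRA-/- libraries and at 245 to 280 FPKM in NPRA+/+ libraries, without overlap. The exact permutation p was 0.0159 for the mean log2 level of the endothelial list and 0.00794 for that of the macrophage list, the smallest that 5 against 5 libraries can give. Adjusted over the 9 marker lists tested, both became 0.0714 (exact permutation tests, Benjamini-Hochberg), a value below which 1 list alone could not fall. Whether fewer cells of a type or less RNA per cell lies behind a lower level cannot be told apart in such bulk tissue.

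None of the 9 genes passed the test of a difference between the genotypes. With limma and Benjamini-Hochberg adjustment over all 10764 genes tested, 0 of 9 passed the threshold of 0.05 on the adjusted p, where 0.00929% of all genes did. At an unadjusted p under 0.05, 0 of 9 passed as well, against 5.52% of all genes. The adjusted p-values of the 9 genes lay between 0.914 and 0.974. The libraries of the groups overlapped for each of the 9, while 1.08% of all tested genes had groups that did not overlap. Pde1a, Pde1c and Pde3a had higher means in NPRA-/- libraries and the other 6 had lower ones; of all tested genes 39.4% were higher and 60.6% lower. The median log2 difference over the 9 genes was -0.083, and over all tested genes it was -0.029. The 95% interval of the log2 difference was widest for Pde1a, from -0.20 to 0.68, and narrowest for Vasp, from -0.19 to 0.13; that of Pde2a reached farthest down, to -0.51.

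**Figure D1:**
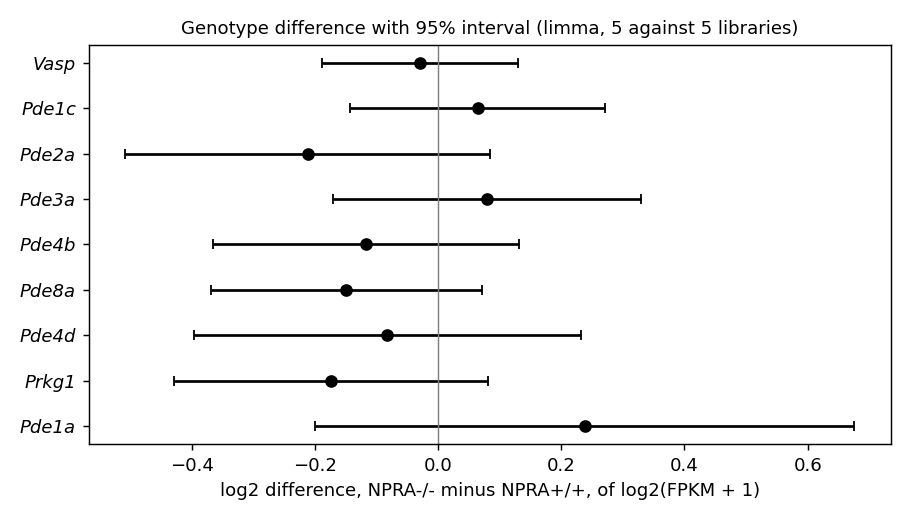
Log2 difference of each gene, NPRA-/- minus NPRA+/+, on the scale log2(FPKM + 1), with its 95% interval from limma (n = 5 libraries each). All 9 intervals include 0, and that of Pde1a is the widest of the 9.

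The genes covered a wide span of levels, counted over listed transcripts only. Vasp averaged 14.9 FPKM over the 10 libraries, Pde1c 13.5 FPKM, Pde2a 10.9 FPKM, Pde3a 8.79 FPKM and Pde4b 8.11 FPKM. Pde8a followed at 6.44 FPKM, Pde4d at 4.73 FPKM, Prkg1 at 2.03 FPKM and Pde1a at 1.61 FPKM. Among the 10764 tested genes these means ran from percentile 70.0 for Vasp to percentile 9.36 for Pde1a. Taken within each library, Vasp lay above Pde1c and Pde1c above Pde2a in 9 of 10 libraries each, Pde3a above Pde4b in 7 and Prkg1 above Pde1a in 8, in these pairs by less on average than the SD of the difference. The mean difference was larger than its SD for Pde2a over Pde3a, in this order in 8 of 10 libraries, and for Pde4b over Pde8a and Pde8a over Pde4d, in 9 each. Pde4d lay above Prkg1 in 10 of 10 libraries.

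**Figure D2:**
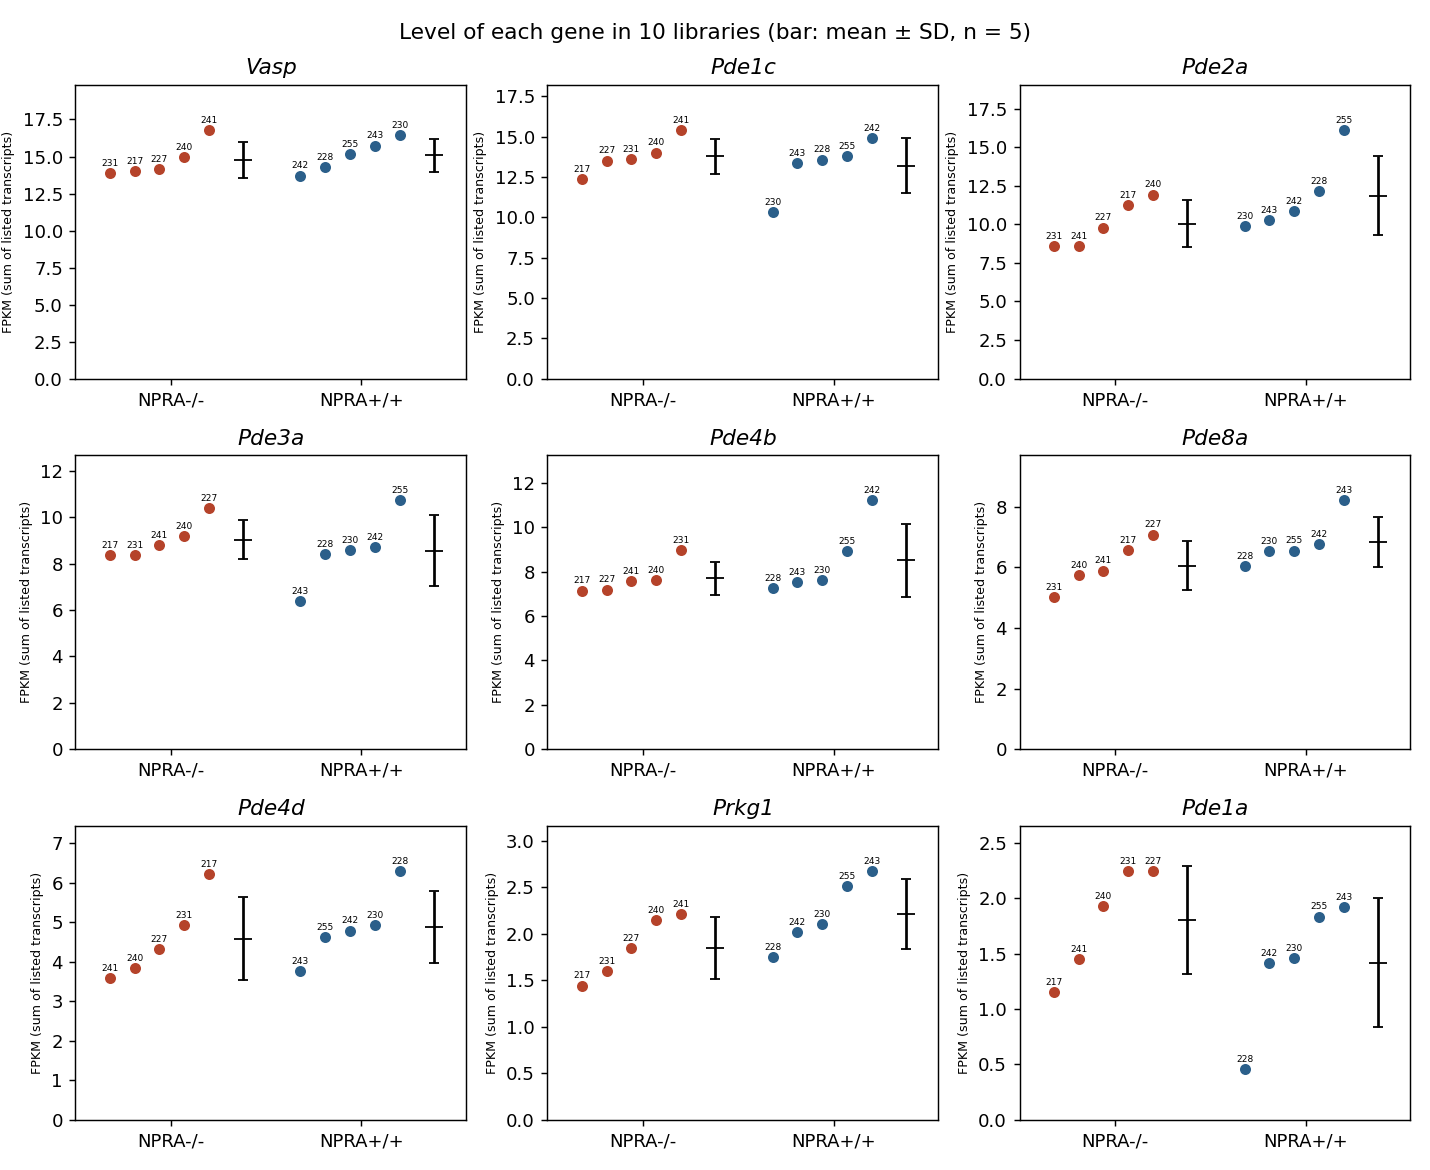
FPKM of each gene in every library, by mouse number, with the mean and SD of each genotype beside the points (n = 5 each; axes start at 0). The points of the NPRA-/- and NPRA+/+ libraries overlap in all 9 panels, and replicate 228 lies lowest for Pde1a.

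Prkg1 encodes cGMP-dependent protein kinase I, the main kinase that cGMP activates in heart and smooth muscle. Prkg1 (chromosome 19, 30564489 to 31765033, minus strand, GRCm38) was at 1.44, 1.84, 1.60, 2.15 and 2.21 FPKM in replicates 217, 227, 231, 240 and 241 of the NPRA-/- group, and at 1.75, 2.10, 2.02, 2.68 and 2.52 FPKM in replicates 228, 230, 242, 243 and 255 of the NPRA+/+ group. Replicates 217 and 231, both NPRA-/-, stood lowest and replicates 243 and 255, both NPRA+/+, highest, and the groups overlapped between 1.75 and 2.21 FPKM. The means were 1.85 ± 0.336 FPKM in the NPRA-/- group and 2.21 ± 0.378 FPKM in the NPRA+/+ group, with a log2 difference of -0.17 (SE 0.12, limma adjusted p = 0.914). Smooth muscle and pericyte markers (10 of 10 listed, none at 0) stand for cells known to be rich in this kinase. They summed to 474 to 537 FPKM in NPRA-/- libraries and to 436 to 702 FPKM in NPRA+/+ libraries. Their mean log2 level was 4.51 ± 0.0628 in NPRA-/- libraries and 4.74 ± 0.176 in NPRA+/+ libraries. The exact permutation p for it was 0.0476, and 0.143 after Benjamini-Hochberg adjustment over the 9 marker lists. The part of these markers in the Prkg1 values was not tested. Within the 6 libraries with Myl7 at 10 FPKM or more the log2 difference of Prkg1 was -0.31, and within the 4 with Myl7 under 1 FPKM it was 0.033. These subsets, of 3 and 2 libraries per group, were chosen after seeing the data, and a dependence on Myl7 was not tested.

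The kinase is made in 2 forms that differ at their amino-terminal ends, where they dimerise and pick their substrates. The listed transcript, Prkg1-201, starts the alpha form. The beta form starts at another exon, in Prkg1-202, which is not among the listed transcripts. The Prkg1 level above is therefore the value of Prkg1-201 alone. The first 60 coding bases of each are given below because the forms part at their starts; 1747 coding bases are shared. The sequences are GENCODE vM21 transcripts (GRCm38, minus strand), read 5′ to 3′, and capitals mark the start codon. Prkg1-201 starts at chr19:31764763-31764822 and Prkg1-202 at chr19:31664222-31664281.
Prkg1-201: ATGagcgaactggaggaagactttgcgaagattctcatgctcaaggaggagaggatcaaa
Prkg1-202: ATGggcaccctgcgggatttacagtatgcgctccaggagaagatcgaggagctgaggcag

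Vasp encodes an actin regulator that cGMP- and cAMP-dependent kinases phosphorylate, and whose phosphorylation is widely read as a sign of kinase activity; mRNA levels do not show that state. Vasp (chromosome 7, 19256929 to 19271817, minus strand) was at 14.0, 14.2, 13.9, 14.9 and 16.8 FPKM in NPRA-/- libraries, in the order of mouse numbers given above, and at 14.3, 16.5, 13.7, 15.7 and 15.2 FPKM in NPRA+/+ libraries. The highest library was NPRA-/- replicate 241 and the lowest NPRA+/+ replicate 242, so either group spanned nearly the whole range. The means were 14.8 ± 1.22 FPKM in NPRA-/- libraries and 15.1 ± 1.10 FPKM in NPRA+/+ libraries (log2 difference -0.029, SE 0.072, limma adjusted p = 0.974). Vasp was the steadiest of the 9 genes, with a coefficient of variation of 7.44% over the 10 libraries, where the median tested gene had 14.2%. The direction of so small a difference was not fixed: it was 0.0014 without NPRA+/+ replicate 230 and 0.0039 under quantile normalization or scaling by the median of ratios.

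Pde1a and Pde1c encode calcium- and calmodulin-stimulated enzymes, of which PDE1C hydrolyses both nucleotides well and PDE1A prefers cGMP. Pde1a (chromosome 2, 79834453 to 80129458, minus strand) was at 1.16, 2.25, 2.25, 1.93 and 1.45 FPKM in NPRA-/- libraries, and at 0.455, 1.46, 1.42, 1.92 and 1.84 FPKM in NPRA+/+ libraries. Replicate 228, labelled NPRA+/+, stood lowest of all, and Pde1a varied 4.95-fold between its lowest and highest library, where the other 8 genes varied 1.23-fold to 1.88-fold. The means were 1.81 ± 0.489 FPKM in the NPRA-/- group and 1.42 ± 0.583 FPKM in the NPRA+/+ group. The log2 difference was 0.24 (SE 0.20, limma adjusted p = 0.920) and was 0.065 without replicate 228 and 0.42 with a pseudocount of 0.1.

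Pde1c (chromosome 6, 56069804 to 56569103, minus strand) stood far above its relative in the sum of listed transcripts. Of 9 annotated protein-coding transcripts of Pde1c 4 were listed, and of 7 of Pde1a 1 was, and those not listed are in neither sum. Pde1c was at 12.4, 13.5, 13.6, 14.0 and 15.4 FPKM in NPRA-/- libraries and at 13.6, 10.3, 14.9, 13.4 and 13.8 FPKM in NPRA+/+ libraries. Apart from replicate 230, the lowest at 10.3 FPKM, the libraries of both groups lay between 12.4 and 15.4 FPKM. The log2 difference was 0.064 (SE 0.094, limma adjusted p = 0.945), and -0.015 without replicate 230. The ratio of Pde1c to Pde1a, both per length of transcript, ran from 6.00 to 10.7 in NPRA-/- libraries and from 6.96 to 29.9 in NPRA+/+ libraries, with 29.9 in replicate 228.

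The listed Pde1c transcripts begin with the same coding bases and differ further downstream, at 706 codons in Pde1c-201, 654 in Pde1c-202, 622 in Pde1c-203 and 631 in Pde1c-205. Pde1c-205 was the main one, with 78.1% ± 4.20 of Pde1c FPKM in NPRA-/- libraries and 78.8% ± 8.02 in NPRA+/+ libraries (SD, n = 5 each). Pde1c-203 was listed at 0 in NPRA-/- replicates 217, 227 and 240 and in NPRA+/+ replicates 230 and 255, and was at 0.623 to 1.00 FPKM in the other 5 libraries. Its coding sequence lies wholly within that of Pde1c-205, so how fragments were divided between them is uncertain.

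Pde2a encodes the phosphodiesterase that cGMP binding stimulates, through which cGMP lowers cAMP. Pde2a (chromosome 7, 101421691 to 101512827, plus strand) was at 11.2, 9.79, 8.60, 11.9 and 8.61 FPKM in NPRA-/- libraries and at 12.1, 9.89, 10.9, 10.3 and 16.1 FPKM in NPRA+/+ libraries. The highest 2 values were those of NPRA+/+ replicates 255 and 228, and the lowest 3 were NPRA-/- libraries, with overlap between 9.89 and 11.9 FPKM. The means were 10.03 ± 1.51 FPKM in the NPRA-/- group and 11.9 ± 2.54 FPKM in the NPRA+/+ group, with a log2 difference of -0.21 (SE 0.13, 95% interval -0.51 to 0.085, limma adjusted p = 0.914). It was -0.10 without replicate 255. Within the 6 libraries with Myl7 at 10 FPKM or more it was -0.067, and within the 4 with Myl7 under 1 FPKM -0.43. Those subsets have 3 and 2 libraries per group, and a dependence on Myl7 was not tested. Endothelial cells also make this enzyme; the endothelial sums given above averaged 334 FPKM in NPRA-/- libraries and 369 FPKM in NPRA+/+ libraries, and their part was not tested.

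In replicate 255 part of the Pde2a level was assigned to a transcript that was nearly missing elsewhere. Pde2a-204 was at 4.42 FPKM in replicate 255, which was 27.4% of its Pde2a, and was listed at 0 in 7 libraries and at 0.0023 and 0.0032 FPKM in NPRA-/- replicates 227 and 240. It met the floor of 0.5 FPKM for a listed transcript through its NPRA+/+ mean of 0.884 FPKM alone. Part of the lower Pde2a sum in NPRA-/- libraries is thus built into the listing. The common transcript, Pde2a-201, was at 11.2, 9.79, 8.60, 11.9 and 8.61 FPKM in NPRA-/- libraries and at 12.1, 9.89, 10.9, 10.3 and 11.7 FPKM in NPRA+/+ libraries, with a log2 difference of -0.13 (SE 0.10, limma adjusted p = 0.906). Replicate 255 was also the library in which Ucp1, the uncoupling protein of brown fat, was at 5.89 FPKM, against 0 to 0.0904 FPKM in the other 9. Of 7 adipocyte markers 5 were listed, and they summed to 669 to 766 FPKM in NPRA-/- libraries and to 648 to 838 FPKM in NPRA+/+ libraries, nearly all of it Fabp4, which endothelial cells make as well. Of the others, Cidec averaged 0.234 FPKM in NPRA-/- libraries and 1.46 FPKM in NPRA+/+ libraries, with 3.60 FPKM in replicate 255. Adipoq averaged 0.612 FPKM in NPRA-/- libraries and 1.33 FPKM in NPRA+/+ libraries. Cfd averaged 1.21 FPKM in NPRA-/- libraries and 2.34 FPKM in NPRA+/+ libraries. It was at 2.70 FPKM in replicate 255, below NPRA+/+ replicate 243 at 3.51 FPKM and NPRA-/- replicate 227 at 3.07 FPKM. Cidec, Ucp1 and Cfd were each at 0 in at least 1 library. For the mean log2 level of the list the exact permutation p was 0.119, and 0.214 adjusted over the 9 lists. The part of these markers in Pde2a-204 was not tested.

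The 2 transcripts are shown by their first 60 coding bases, since the annotation separates them there; they share 2734 coding bases, so how fragments were divided between them is uncertain. Both are on the plus strand (GENCODE vM21, GRCm38), Pde2a-201 at chr7:101421925-101421984 and Pde2a-204 at chr7:101450628-101450687, and capitals mark the start codon.
Pde2a-201: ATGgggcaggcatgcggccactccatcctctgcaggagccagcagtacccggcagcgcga
Pde2a-204: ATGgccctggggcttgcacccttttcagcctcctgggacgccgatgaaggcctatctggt

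Pde3a encodes the phosphodiesterase that cGMP inhibits, through which cGMP raises cAMP. Pde3a (chromosome 6, 141249269 to 141507448, plus strand) was at 8.35, 10.4, 8.38, 9.18 and 8.80 FPKM in NPRA-/- libraries and at 8.42, 8.57, 8.70, 6.37 and 10.7 FPKM in NPRA+/+ libraries. Both extremes belonged to NPRA+/+ libraries, replicate 243 at the bottom and replicate 255 at the top, and the 5 NPRA-/- libraries lay between them. The means were 9.02 ± 0.841 FPKM in NPRA-/- libraries and 8.56 ± 1.54 FPKM in NPRA+/+ libraries (log2 difference 0.080, SE 0.11, limma adjusted p = 0.945). Without replicate 243 the log2 difference was -0.0097.

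Pde4b encodes a cAMP-specific phosphodiesterase that limits beta-adrenergic signals at the cardiac calcium channel. Pde4b (chromosome 4, 102087543 to 102607259, plus strand) was at 7.14, 7.20, 8.99, 7.62 and 7.57 FPKM in NPRA-/- libraries and at 7.26, 7.63, 11.2, 7.54 and 8.92 FPKM in NPRA+/+ libraries. Replicates 231, 242 and 255 stood above the other 7 libraries, which lay between 7.14 and 7.63 FPKM. The log2 difference was -0.12 (SE 0.11, limma adjusted p = 0.924), with means of 7.70 ± 0.750 FPKM in the NPRA-/- group and 8.52 ± 1.64 FPKM in the NPRA+/+ group. Without replicate 242 it was -0.023, and with the most abundant transcript alone 0.077.

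PDE4 enzymes come in long forms, which carry both upstream conserved regions, and short forms, which lack the first of these regions and with it a site for protein kinase A. Pde4b-207 codes for 721 codons and Pde4b-203, the short form, for 564. Pde4b-210, with 161 codons, shares 0 coding bases with Pde4b-203 and 353 with Pde4b-207, and is too short to hold the catalytic domain. The starts are printed because they differ in all 3, on the plus strand of GRCm38 at chr4:102570648-102570707 for Pde4b-203, chr4:102255221-102255280 for Pde4b-207 and chr4:102430062-102430121 for Pde4b-210 (GENCODE vM21; capitals mark the start codon).
Pde4b-203: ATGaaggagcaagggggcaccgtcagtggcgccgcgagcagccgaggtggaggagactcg
Pde4b-207: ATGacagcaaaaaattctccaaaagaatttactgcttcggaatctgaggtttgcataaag
Pde4b-210: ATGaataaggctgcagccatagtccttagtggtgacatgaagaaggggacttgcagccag

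The make-up of Pde4b varied widely between the libraries of either genotype. The short form held 20.8%, 23.5%, 47.2%, 28.3% and 44.2% of Pde4b FPKM in NPRA-/- libraries and 54.0%, 22.7%, 55.9%, 29.8% and 27.3% in NPRA+/+ libraries. The 4 libraries 231 and 241 labelled NPRA-/- and 228 and 242 labelled NPRA+/+, stood at 44.2% to 55.9%, and the other 6 at 20.8% to 29.8%. The difference between the groups was -5.15 percentage points (SE 8.44, limma adjusted p = 0.959). The long transcript Pde4b-207 averaged 53.4% ± 11.5 in NPRA-/- libraries and 45.6% ± 9.63 in NPRA+/+ libraries. The same 4 libraries were among the 5 in which Pde1c-203 was above 0, together with NPRA+/+ replicate 243. This overlap was picked out after the values were seen and was not tested.

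Pde4d encodes the cAMP-specific phosphodiesterase that is bound to the ryanodine receptor and phospholamban complexes of the sarcoplasmic reticulum. Pde4d (chromosome 13, 108449948 to 109953461, plus strand) was at 6.22, 4.32, 4.92, 3.83 and 3.58 FPKM in NPRA-/- libraries and at 6.30, 4.93, 4.79, 3.76 and 4.63 FPKM in NPRA+/+ libraries. Replicates 217 and 228, 1 of each genotype, stood above the other 8 libraries. The means were 4.58 ± 1.05 FPKM in the NPRA-/- group and 4.88 ± 0.914 FPKM in the NPRA+/+ group (log2 difference -0.083, SE 0.14, limma adjusted p = 0.955). The log2 difference was -0.0013 without replicate 228 and -0.18 without replicate 217. It was 0.16 within the 6 libraries with Myl7 at 10 FPKM or more and -0.45 within the 4 with Myl7 under 1 FPKM. With 3 and 2 libraries per group in these subsets, a dependence on Myl7 was not tested.

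The listed Pde4d transcripts are a short form of 584 codons, Pde4d-207, and a long form of 747 codons, Pde4d-209. Their shared coding sequence of 1616 bases is 92.2% of the short form and 72.1% of the long one, and their starts, which lie far apart on the chromosome, are printed here. Pde4d-207 starts at chr13:109903441-109903500, and the printed bases of Pde4d-209 lie in 2 exons between positions 108860166 and 109032485 (plus strand, GRCm38, GENCODE vM21; capitals mark the start codon).
Pde4d-207: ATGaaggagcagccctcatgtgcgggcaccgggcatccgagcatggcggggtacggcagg
Pde4d-209: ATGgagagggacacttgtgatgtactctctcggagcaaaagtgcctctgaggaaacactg

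The long Pde4d form met the floor of 0.5 FPKM for a listed transcript through its NPRA-/- mean alone, so a higher level there is built into its listing and its values are given as a description. It held 9.60%, 14.3%, 17.4%, 14.7% and 13.7% of Pde4d FPKM in NPRA-/- libraries and 8.65%, 6.68%, 6.81%, 11.7% and 10.6% in NPRA+/+ libraries. In all, 4 of the 5 NPRA-/- libraries lay above every NPRA+/+ library, and replicate 217, at 9.60%, lay among them. The shares averaged 13.9% ± 2.80 in NPRA-/- libraries and 8.90% ± 2.26 in NPRA+/+ libraries. With 2 listed transcripts the share of the short form is the remainder. In FPKM the long form was at 0.597, 0.618, 0.855, 0.564 and 0.492 in NPRA-/- libraries and at 0.545, 0.329, 0.326, 0.441 and 0.492 in NPRA+/+ libraries. Without the filter of 1 FPKM, limma gave its log2 difference as 0.19 with an adjusted p of 0.911. The listing favours that direction as well, so this fit is no independent test of the long form.

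Over all 9 genes, 12 of the 16 transcripts passed that filter, and 0 of the 12 passed, where 0.0283% of all 17641 tested transcripts did (limma, adjusted p under 0.05). At an unadjusted p under 0.05, again 0 of 12 passed, against 5.5% of all. The 4 below the filter were Pde1c-202, Pde1c-203, Pde2a-204 and Pde4d-209. For the share of a gene's FPKM held by each transcript, 11 transcripts of Pde1c, Pde2a, Pde4b and Pde4d were tested and 0 passed, where 0.0448% of 15612 did. At an unadjusted p under 0.05 the share tests called 5.22% of all transcripts and, of these 11, the mirrored pair of Pde4d. That pair is no support for a difference, since Pde4d-209 was listed through NPRA-/- libraries alone, and likewise Pde1c-203 and Pde2a-204 were listed through NPRA+/+ libraries alone.

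**Figure D3:**
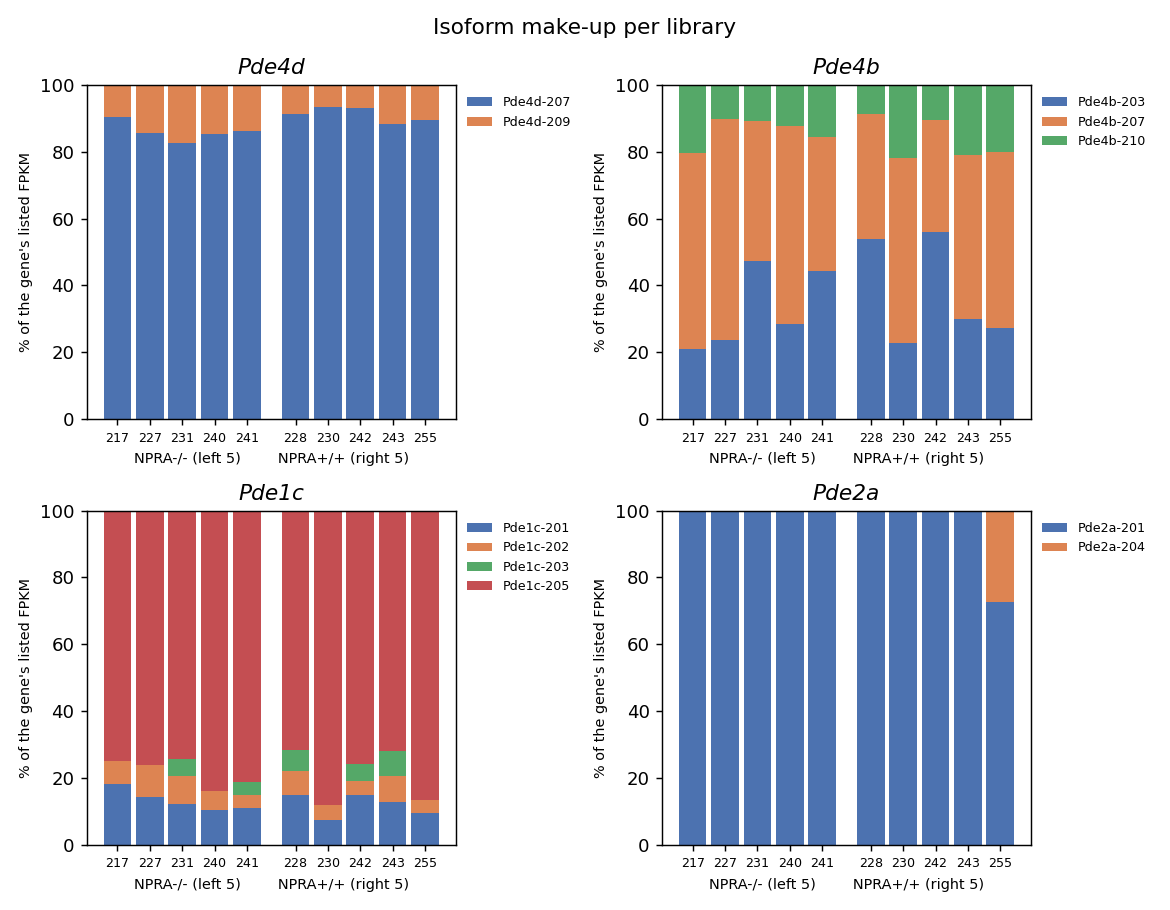
Percent of each gene's FPKM held by each listed transcript in every library, for the 4 genes with more than 1 listed transcript. The long Pde4d-209 share lies between 9.60% and 17.4% in NPRA-/- libraries and between 6.68% and 11.7% in NPRA+/+ libraries. Pde4d-209 met the listing floor of 0.5 FPKM through its NPRA-/- mean alone, so a higher share there is built in. Pde2a-204, listed through its NPRA+/+ mean alone, is visible in replicate 255.

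Pde8a encodes a cAMP-specific phosphodiesterase with a high affinity for its substrate. Pde8a (chromosome 7, 81213596 to 81334533, plus strand) was at 6.57, 7.09, 5.02, 5.74 and 5.89 FPKM in NPRA-/- libraries and at 6.03, 6.54, 6.77, 8.22 and 6.55 FPKM in NPRA+/+ libraries. The lowest 3 values were NPRA-/- libraries and the highest was NPRA+/+ replicate 243, with overlap between 6.03 and 7.09 FPKM. The means were 6.06 ± 0.794 FPKM in the NPRA-/- group and 6.82 ± 0.825 FPKM in the NPRA+/+ group (log2 difference -0.15, SE 0.10, limma adjusted p = 0.914). Without replicate 243 it was -0.088 and without replicate 231 it was -0.093.

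Summed over the 15 listed genes that encode a catalytic phosphodiesterase, the level was 84.2 ± 1.28 FPKM in NPRA-/- libraries and 86.6 ± 6.84 FPKM in NPRA+/+ libraries (SD, n = 5 each). The spread of the NPRA+/+ group included replicate 255 at 97.3 FPKM. The 7 phosphodiesterases described above held 63.0% ± 0.966 of this sum in NPRA-/- libraries and 63.8% ± 1.93 in NPRA+/+ libraries. Genes of cAMP-specific enzymes held 53.9% ± 1.31 in NPRA-/- libraries and 54.3% ± 2.11 in NPRA+/+ libraries. Genes of enzymes that act on both nucleotides held 43.1% ± 1.45 in NPRA-/- libraries and 42.7% ± 2.21 in NPRA+/+ libraries. The cGMP-specific pair, Pde5a and Pde9a, held 2.94% ± 0.873 in NPRA-/- libraries and 3.04% ± 0.342 in NPRA+/+ libraries. By mean, the largest share in either group was that of Pde4a, a further cAMP-specific gene, at 17.8% ± 0.601 against 17.1% ± 0.790 in NPRA+/+ libraries, followed by Pde1c at 16.4% ± 1.36 against 15.2% ± 1.54 in NPRA+/+ libraries. Each of these differences was smaller than the larger SD beside it, and none was tested.

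**Figure D4:**
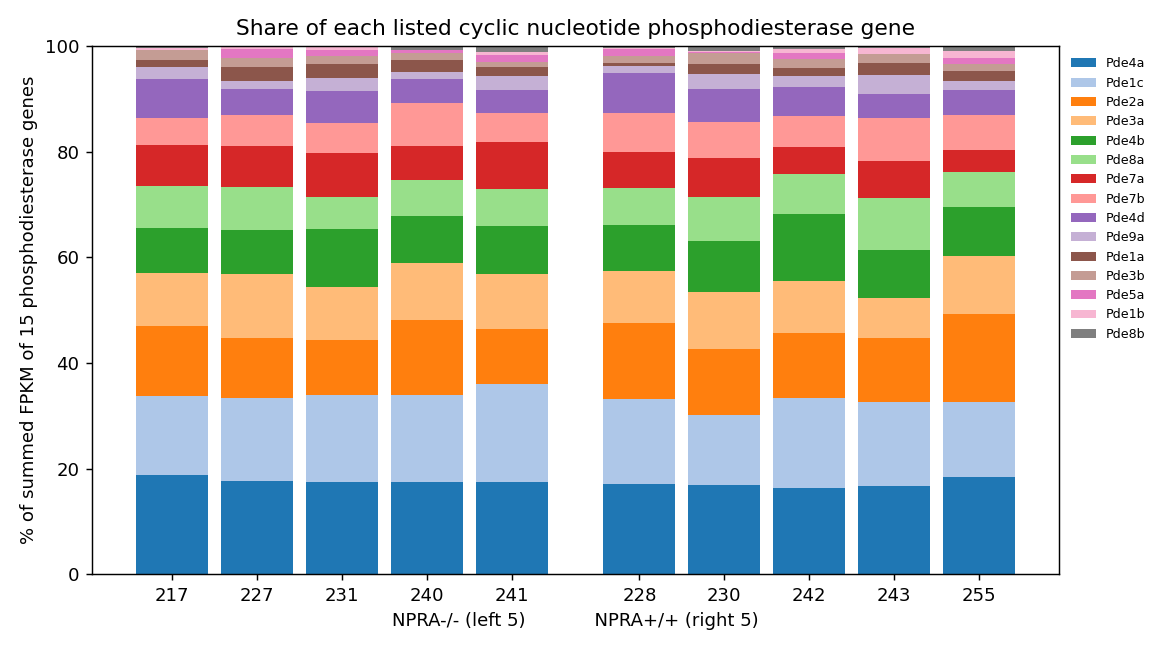
Share of the summed FPKM of 15 phosphodiesterase genes held by each gene in every library, NPRA-/- libraries to the left of NPRA+/+ libraries. Pde4a, at the bottom of each bar, holds 17.5% to 18.9% in NPRA-/- libraries and 16.4% to 18.4% in NPRA+/+ libraries.

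Other genes of the pathway were counted from 4 lists, and none of their tested members passed the adjusted limma test, where 0.00929% of all tested genes did. For comparison with the counts, 39.4% of all tested genes were higher and 60.6% lower, with a median log2 difference of -0.029. Of 17 other phosphodiesterase genes 9 were listed and 6 tested, with 2 higher, 4 lower and a median log2 difference of -0.099. Pde7a, which encodes a cAMP-specific enzyme, had the smallest p of that list, with 6.55 ± 0.709 FPKM in NPRA-/- libraries and 5.18 ± 0.915 FPKM in NPRA+/+ libraries (log2 difference 0.30, SE 0.11, limma adjusted p = 0.893). Its relative Pde7b was at 5.13 ± 1.02 FPKM in NPRA-/- libraries and 6.06 ± 0.694 FPKM in NPRA+/+ libraries (log2 difference -0.21, adjusted p = 0.906, limma). Pde5a, the cGMP-specific target of sildenafil, was listed at 0 in NPRA-/- replicate 217 and NPRA+/+ replicate 243 and at 0.0698 to 1.35 FPKM in the other 8 libraries, and was not tested.

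Upstream, 10 of 13 genes of cGMP synthesis and its ligands were tested, with 3 higher, 7 lower and a median log2 difference of -0.040. The values over all tested genes, 60.6% lower and a median of -0.029, stand beside this list and those that follow. The soluble guanylyl cyclase subunit genes Gucy1a1 and Gucy1b1 were at 5.89 ± 0.748 and 7.82 ± 0.745 FPKM in NPRA-/- libraries, against 5.95 ± 0.807 and 8.25 ± 0.830 FPKM in NPRA+/+ libraries. Npr3, the clearance receptor, and Npr2, the receptor of C-type natriuretic peptide, had the smallest p-values, with log2 differences of -0.42 (SE 0.24) and -0.43 (SE 0.26). That of Npr3 was -0.18 without replicate 217 and -0.047 within the 4 libraries with Myl7 under 1 FPKM. That of Npr2 was -0.28 without replicate 240 and -2.07 with the most abundant transcript alone (limma adjusted p = 0.909 for the latter). Downstream, 18 of 24 other cGMP effector and substrate genes were tested, with 5 higher, 13 lower and a median of -0.094. Hcn4, a pacemaker channel gated by cyclic nucleotides, was at 1.98 ± 0.467 FPKM in NPRA-/- libraries and 2.60 ± 0.455 FPKM in NPRA+/+ libraries. Cnn1, a calponin of smooth muscle, was at 1.86 ± 0.858 FPKM in NPRA-/- libraries and 2.89 ± 0.811 FPKM in NPRA+/+ libraries. In the cAMP list 26 of 29 genes were tested, with 9 higher, 17 lower and a median of -0.035. Creb1, a transcription factor activated by cAMP-dependent kinase, was at 3.85 ± 1.22 FPKM in NPRA-/- libraries and 4.95 ± 0.901 FPKM in NPRA+/+ libraries, and its log2 difference of -0.32 was 0.032 with the most abundant transcript alone and -0.18 without replicate 231. Akap6, which anchors the kinase and PDE4D at the nuclear envelope, was at 20.9 ± 1.30 FPKM in NPRA-/- libraries and 18.1 ± 3.56 FPKM in NPRA+/+ libraries, a log2 difference of 0.21 that was 0.092 without replicate 242.

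The 9 genes did not move as a block over the 10 libraries. Of their 36 pairs, 21 had a positive Pearson correlation of log2(FPKM + 1), with a median r of 0.062 as a description over 10 libraries that share their preparation. Prkg1 and Vasp had the highest r of the pairs, 0.64, and Prkg1 and Pde4d the lowest, -0.71, which was -0.49 without the 2 libraries farthest from the median of Prkg1. Among genes with a mean of at least 5 FPKM, the pattern most like that of Pde4d was that of Trim55, a muscle RING finger protein, with r = 0.98 over 10 libraries and 0.96 without the 2 farthest. The closest to Prkg1 were Acbd5, a peroxisomal membrane protein (r = 0.96), and Plcb4, a phospholipase C (r = 0.95). Pde8a was closest to Dnajc16 (r = 0.95), Pde3a to the chaperonin subunit gene Cct8 (r = 0.94) and Pde2a to the scaffold gene Homer2 (r = 0.93). For Pde1a it was Nab2 (r = 0.91), for Pde4b Pam16 (r = 0.90) and for Vasp the cap-binding protein gene Eif4e2 (r = 0.86). For Pde1c it was Dvl1, with r = 0.91 that was 0.50 without replicates 230 and 241. The next closest genes, Plcb4 apart, were Ddx20 for Pde1a, Eef1a2 for Pde1c, Gca for Pde2a, Trip4 for Pde3a, Erg for Pde4b, Ddt for Pde4d, Sec61a1 for Pde8a and Ddah2 for Vasp, with r from 0.85 for Ddah2 to 0.94 for Trip4. Without the 2 libraries farthest from the median of the member, r was 0.60 for Pam16, 0.65 for Sec61a1, 0.67 for Gca and 0.68 for Erg. For the rest, Dvl1 apart, it ran from 0.73 for Trip4 to 0.98 for Dnajc16. These genes were picked as the highest of up to 6689 candidates, so high values of r are part of the choice.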

How the data were processed

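The submitters' processing notes name cutadapt, HISAT2, StringTie and the mouse build mm10; the sources used here give no version. Per the labels' protocols, poly(A) RNA went into strand-specific dUTP libraries, 1 per mouse number. The authors deposited 1 value per transcript and library, taken as FPKM; its unit is not named in the table and TPM is possible. Each listed transcript had a mean of at least 0.5 in 1 of the groups, and there are no counts. Precision thus rests on the spread between libraries, which may be partly technical. The p-values set a difference between the groups against that spread. In limma the spread of each gene or transcript is drawn toward that of all those tested. A value of 0 may be a failed estimate.

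Identifiers were matched to GENCODE vM21 (22107 of 22157) and summed per gene symbol; the Prkg1-201 start is that of the next version of its identifier. From the deposited FPKM, log2(FPKM + 1) was computed, which understates differences of low genes. Genes and transcripts with a group mean of at least 1 FPKM were tested with limma 3.58.1 in R 4.3.3 (trend, no covariate, Benjamini-Hochberg over all of them), and transcript shares without trend. For single values, exact permutation tests (two-sided, 126 splits, smallest p 0.00794) were used. Tests were checked on simulated data. Alternatives were other pseudocounts, filters, scalings and weights, the most abundant transcript, leaving out each library, and, chosen after seeing the data, the libraries with high or low Myl7. The members and lists were chosen with earlier results of these data known. The genes named were all 9 members, Npr1, Nppa and Nppb, the 2 smallest p per pathway list and the 2 genes most correlated with each member; others named were chosen after their values were seen. Figures and permutations used matplotlib 3.10.9, scipy 1.17.1, pandas 2.3.3 and numpy 2.4.6 in Python 3.11.15.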

Additional observations from a re-analysis of the deposited data

Results flagged for a closer look

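In 40 groups of 5 libraries checked for a library far from the rest, 2 were picked out; chance picks about 1 group in 20. Pde4b in NPRA-/- replicate 231 was at 8.99 FPKM, and the other 4 libraries of its group were at 7.14 to 7.62 FPKM. The transcript Pde2a-204 in NPRA+/+ replicate 255 was at 4.42 FPKM, and was listed at 0 in the other 4 libraries of its group.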

How the results depend on the processing

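The number of the 9 genes called stayed at 0 under 22 alternatives, of their transcripts under 21 and of the transcript shares under 15, while the calls over all features ran from 0 to 3, from 2 to 27 and from 0 to 57. No paired analysis was possible because the labels do not say which mice were of the same litter. Litter was therefore left out of every test. The following log2 differences changed sign; none passed the test before or after, and the cause was not tested. With median-of-ratios scaling and with quantile normalization, Vasp was at 0.0039 in each, and Npr1 at 0.016 and 0.026. With the most abundant transcript alone, Pde4b was at 0.077 and Creb1 at 0.032. In the 6 libraries with Myl7 at 10 FPKM or more, Pde4d was at 0.16, its transcript Pde4d-207 at 0.086, Pde1c-205 at -0.010 and Nppb at -0.15, and the shares of Pde2a-201 and Pde2a-204 at -0.0078 and 0.0078 percentage points. In the 4 libraries with Myl7 under 1 FPKM, Prkg1 and Prkg1-201 were at 0.033, Pde3a and Pde3a-201 at -0.074, Vasp and Vasp-201 at 0.0995, Pde1c-201 at -0.034, Npr1 at 0.0056 and Nppa at 0.36, and the shares of Pde1c-201, Pde1c-202 and Pde1c-205 at -1.43, -0.675 and 3.36 percentage points.

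Leaving out 1 library at a time gave -0.015 to 0.11 for Pde1c, -0.0097 to 0.16 for Pde3a and Pde3a-201, -0.074 to 0.0014 for Vasp and Vasp-201, -0.0055 to 0.22 for Pde1c-201, -0.014 to 0.15 for Pde4b-207, -0.048 to 0.021 for Npr1, -0.25 to 0.19 for Nppa and -0.071 to 0.52 for Nppb. The shares ran from -0.010 to 6.84 percentage points for Pde2a-201, from -6.84 to 0.010 for Pde2a-204 and from -2.50 to 1.61 for Pde1c-205. The mean log2 level of the atrial markers differed by -0.57 to 0.30. The depth of the libraries is unknown, so whether more reads would settle the transcripts below 1 FPKM cannot be said.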
